A study of Mus musculus with 2 samples.

Results

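Ciliated airway cells, the epithelial cells that carry motile cilia in the conducting airways, were examined in single-cell RNA-seq libraries from the lungs of a pair of mice. They were selected on measured values: a cell had 200 to 6000 genes, at most 10% mitochondrial UMIs, at least 1 UMI of at least 4 of the 6 genes *Foxj1*, *Ccdc153*, *Tmem212*, *Dynlrb2*, *Tppp3* and *Rsph1*, and at most 2 UMIs of *Col1a2* and *Col3a1* together. A UMI is 1 counted RNA molecule. This gave 245 ciliated cells of 23032 cells that passed the gene and mitochondrial filter, out of 23349 cells in the files. There were 159 of 10917 filtered cells in control (1.46%, exact binomial 95% interval 1.24 to 1.70) and 86 of 12115 in *Gli1 HHIPCKO* (0.710%, 0.568 to 0.876).

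The study removed *Hhip*, which encodes a secreted and membrane-bound inhibitor of Hedgehog ligands, from stromal cells of the growing lung. Both mice were Gli1creERT/+ and homozygous for the floxed *Hhip* allele, so the control carried the same alleles. The *Gli1 HHIPCKO* mouse was given tamoxifen, and the control mouse oil, both starting at birth, and lungs were taken 14 days after birth. The Cre is driven by *Gli1*, a gene of Hedgehog-responding stromal cells, so the deletion was not aimed at ciliated cells.

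Stromal cells were sorted as negative for DAPI, CD31, CD45 and CD326, epithelial cells as negative for DAPI, CD31 and CD45 and positive for CD326, and the sorted cells were mixed at 3 stromal to 1 epithelial. The share of ciliated cells therefore follows the sort and the mix as well as the tissue. As a share of the cells in named epithelial clusters, ciliated cells made up 4.36% (3.72 to 5.07) in control and 2.56% (2.05 to 3.16) in *Gli1 HHIPCKO*. With 1 mouse per group, no difference has a replicate check, and every interval covers counting error only. The mice also differed in sex-linked RNA. Ciliated cells of control held 1 UMI of *Xist* and those of *Gli1 HHIPCKO* 80, while the Y-linked *Eif2s3y* had 35 and 0. In all other cells the *Xist* level was 0.260 counts per 1000000 (CPM) in control and 272 in *Gli1 HHIPCKO*. Treatment, sex and mouse cannot be told apart.

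Multiciliated cells arise from secretory progenitors of the airway. GEMC1 and MCIDAS act with E2F4 or E2F5 to start centriole amplification, and FOXJ1 and the RFX factors then switch on the genes of the axoneme. The motile axoneme is a ring of microtubule doublets around a central pair, bent by dynein arms and kept in register by radial spokes and the nexin-dynein regulatory complex. Its beat moves mucus and trapped particles out of the lung.

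The ciliated cells had a median of 3997 UMIs and 2190 genes in control (range 657 to 17914 UMIs) and 4478 UMIs and 2336 genes in *Gli1 HHIPCKO* (864 to 14487). Summed over the cells, 706134 and 428599 UMIs were counted. CPM below means UMIs of a gene per 1000000 UMIs of such a sum. The median mitochondrial share was 1.21% and 1.41%, against 0.581% and 0.758% in all other cells. Over all cells, 193 barcodes occurred in both libraries. No barcode was shared between ciliated cells of both, while 3 ciliated cells of control and 1 of *Gli1 HHIPCKO* shared theirs with some cell of the other library.

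The 6 genes of the rule had the following levels, given as a description since they chose the cells. *Foxj1*, the master transcription factor of motile cilia, was at 1045 CPM in control and 945 in *Gli1 HHIPCKO*, against 6.09 and 2.45 in all other cells. *Tppp3*, which encodes a tubulin-binding protein, was at 2069 and 2284 CPM. *Dynlrb2*, a dynein light chain, was at 1345 and 1323 CPM, and *Tmem212*, a membrane protein gene, at 889 and 1094. *Rsph1*, a radial spoke head gene, was at 498 and 401 CPM. *Ccdc153* was the member furthest apart between the mice, at 455 CPM (406 to 507) in control and 798 (716 to 887) in *Gli1 HHIPCKO* (log2 ratio 0.81, 0.59 to 1.04). The other members lay between −0.31 and 0.30 on the log2 scale. Between 90.7% and 91.8% of the ciliated cells had a *Foxj1* UMI, while the fibroblast-like clusters had one in 0.159% of cells in control and 0.0411% in *Gli1 HHIPCKO*, at median depths of 3454.5 and 3317 UMIs.

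All 6 rule genes were detected in 84 ciliated cells of control and 48 of *Gli1 HHIPCKO*, 5 in 40 and 27, and just inside the limit, 4 in 35 and 11. Just outside it, 21 and 9 cells had 3 of the 6 genes. The cells at the limit were shallow, with a median of 1673 and 1454 UMIs at 4 genes and 1817 and 1703 at 3 genes, against 5035.5 and 5731.5 at 6 genes. Clustering of all cells gave 1 ciliated-like cluster, led by *Foxj1*, *Sec14l3*, *Tmem212*, *Cyp2s1* and *Dynlrb2*, with 254 cells in control and 127 in *Gli1 HHIPCKO*. It held 158 of the 159 and 85 of the 86 ciliated cells. Of its other cells, 39 and 22 had at least 4 of the 6 genes but were over the collagen limit, and 57 and 20 had fewer than 4. The remaining ciliated cell of control lay in a cluster led by *Ly6d* and *Cd79a*, and that of *Gli1 HHIPCKO* in a cluster led by *Rhd* and *Rrm2*.

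Markers of other cell types were read in the same cells, as UMIs per 10000. All 5 basal cell markers, *Krt5*, *Trp63*, *Krt15*, *Krt14* and *Ngfr*, were at 0 in both mice. The endothelial list summed to 0.184 in control and 0.0233 in *Gli1 HHIPCKO*, led by *Egfl7*, with *Pecam1*, *Cdh5* and *Cldn5* at 0. Immune markers summed to 0.127 and 0.117, with *Ptprc* and *Fcer1g* at 0, and the 9 fibroblast markers, led by *Eln*, to 2.69 and 2.50, a sum that the collagen limit of the rule holds down since *Col1a2* and *Col3a1* are among them. Smooth muscle markers summed to 0.227 and 0.373 (*Des* and *Actg2* at 0), pericyte markers to 0.255 and 0.140 (*Higd1b* at 0), mesothelial markers, led by *Krt19*, to 4.90 and 6.39 (*Wt1* and *Lrrn4* at 0) and AT1 markers, led by *Hopx*, to 10.99 and 11.78. Their part in the results was not tested.

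Markers of the surfactant-producing AT2 cell did not stay near 0. The 8 AT2 markers, led by *Sftpc*, summed to 475 per 10000 in control and 493 in *Gli1 HHIPCKO*. Most of this lay in few cells: 27 ciliated cells of control and 12 of *Gli1 HHIPCKO* carried at least 3 markers of another type, of which 26 and 12 were over for AT2 markers and 1 and 1 for red cell markers. Without these cells the AT2 sum was 22.4 and 12.6, and the red cell sum fell from 54.0 and 37.6 to 3.50 and 3.49. Club, AT1, basal and neuroendocrine markers were not searched in this step, so no cell was left out for them. Club markers summed to 246 per 10000 in control and 207 in *Gli1 HHIPCKO* over all ciliated cells. After this step the club sum was 307 and 243. The median ciliated cell held 6 *Sftpc* UMIs in control and 4 in *Gli1 HHIPCKO*, and the highest 3146 and 1904. Ratios without the cells carrying markers of another type are given below for some of the named genes and lists that their removal moved.

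The level of the axonemal genes set these cells apart, as the rule implies. The 7 motile cilium lists (dynein heavy chains, dynein intermediate and light chains, docking complex, assembly factors, radial spokes and central pair, regulatory complex and rulers, and microtubules with their inner proteins) hold 95 genes. Of these, 88 had enough counts to be measured, which means a UMI in at least 10% of the ciliated cells of either mouse and at least 30 UMIs in all, and 4 had no UMI in either mouse. All 88 were at least 2-fold above the other cells of their library in both mice, against 27.5% of the 6177 measured genes. Their summed level was 26134 CPM in control and 26447 in *Gli1 HHIPCKO*, against 1751 and 1598 in all other cells, and the median gene was 136-fold higher. This contrast chose the cells and is no finding. The testis-type heavy chain *Dnah17*, the spoke gene *Rsph6a* and *Nme8* had no UMI, and *Dnah8* had 7 and 2.

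**Figure D1:**
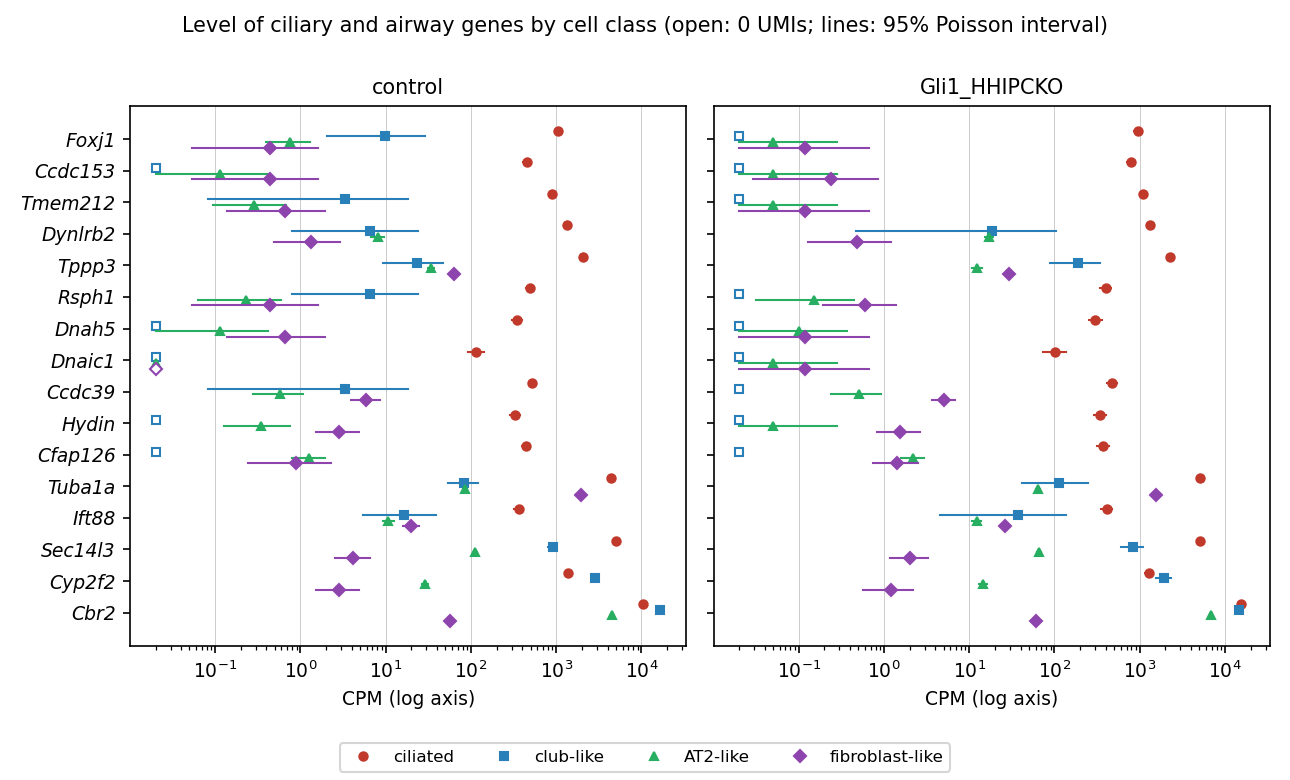
Level of 16 ciliary and airway genes in CPM (log axis) in ciliated, club-like, AT2-like and fibroblast-like cells of the control mouse (left) and the *Gli1 HHIPCKO* mouse (right). Points are the summed level of a class, lines the exact Poisson 95% interval, and open points stand for 0 UMIs; *Foxj1* was at 1045 and 945 CPM in ciliated cells, while *Tuba1a* was also high in fibroblast-like cells and *Cbr2* in club-like cells.

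The next question was whether the axonemal program differed between the mice. Of the 6177 measured genes, 105 (1.7%) were at least 2-fold higher and 124 (2.01%) at least 2-fold lower in the *Gli1 HHIPCKO* mouse, with a median log2 ratio of 0.01 and 3168 above 0. Of the 88 motile cilium genes 1 was at least 2-fold higher and 0 at least 2-fold lower. Their median log2 ratio was −0.12, with 56 below 0 and 32 above. Over the 15 alternative choices of cells, scaling and filters the median ran from −0.17 to −0.03, and that of all measured genes from −0.03 to 0.03.

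Within the arms, the 12 measured dynein heavy chains had a median log2 ratio of −0.16, with none past 2-fold. *Dnah7c* had 35 and 15 UMIs over all ciliated cells. Without the cells carrying markers of another type it had 32 and 9 UMIs and was at −1.15 (−2.40 to −0.05). *Dnah5*, the outer arm motor most often mutated in primary ciliary dyskinesia, was at 347 CPM in control and 301 in *Gli1 HHIPCKO* (−0.21, −0.52 to 0.11). *Dnah9*, the distal outer arm motor, was at 433 and 364 CPM, and *Dnah10*, an inner arm motor, at 303 and 324. The median turned to 0.14 with each cell thinned to 2000 UMIs. *Dnah7a*, *Dnah7b* and *Dnah7c* are close copies of each other, and counts split among them are uncertain. The 10 intermediate and light chains had a median of −0.15, which turned to 0.05 when each cell weighed the same. *Dnaic1* stood at 116 and 100 CPM and *Dnaic2* at 146 and 114 CPM, and the intervals of both ratios held 0.

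The docking complex anchors outer arms to the doublet. Its 5 genes had a median of 0.12, with *Ttc25* at 89.2 CPM in control and 105 in *Gli1 HHIPCKO*. *Ccdc151* was at 110 and 91.0. That median crossed 0 under 3 of 15 alternatives, down to −0.02. Cytoplasmic assembly factors, which fold and load the arms, had a median of −0.05 over 12 genes, from −0.44 for *Zmynd10* to 0.31 for *Dnaaf1*, and their median crossed 0 under 2 alternatives, up to 0.04.

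For radial spokes and the central pair the median over 18 genes was 0.04, and none was past 2-fold. *Hydin*, a central pair projection protein, was at 327 CPM in control and 341 in *Gli1 HHIPCKO*, and *Rsph4a*, a spoke head protein, at 261 and 215. The median crossed 0 under 3 alternatives, down to −0.01. The 11 genes of the regulatory complex and the axonemal rulers had a median of −0.14. The rulers *Ccdc39* and *Ccdc40*, which set the spacing of arms and spokes, were at 525 and 478 CPM and at 327 and 357 CPM. *Iqcd*, a regulatory complex subunit, was the single motile cilium gene past 2-fold, with 19 UMIs in control and 26 in *Gli1 HHIPCKO* (26.9 and 60.7 CPM, log2 ratio 1.17, 0.26 to 2.11). Without the cells carrying markers of another type its ratio was 1.00 (−0.02 to 2.05), an interval that holds 0.

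Axonemal tubulins and the proteins inside the doublets form 1 list. *Tubb4b*, the main ciliary beta-tubulin, was at 3236 CPM in control and 4144 in *Gli1 HHIPCKO* (0.36, 0.27 to 0.45), and *Tuba1a* at 4413 and 5070 (0.20, 0.12 to 0.28). The median of the 20 genes of this list was −0.24 and below 0 under all 15 alternatives, between −0.29 and −0.11. Of these genes 17 were below 0, against 3009 of 6177 over all measured genes, and *Tubb4b*, *Tuba1a* and *Cfap20* were above. *Cfap161* was at 126 and 72.3 CPM (−0.80, −1.44 to −0.20) and *Enkur* at 184 and 114 (−0.69, −1.19 to −0.20). *Sntn*, which encodes sentan of the ciliary tip, was at 266 and 198 CPM (−0.42, −0.81 to −0.05).

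**Figure D2:**
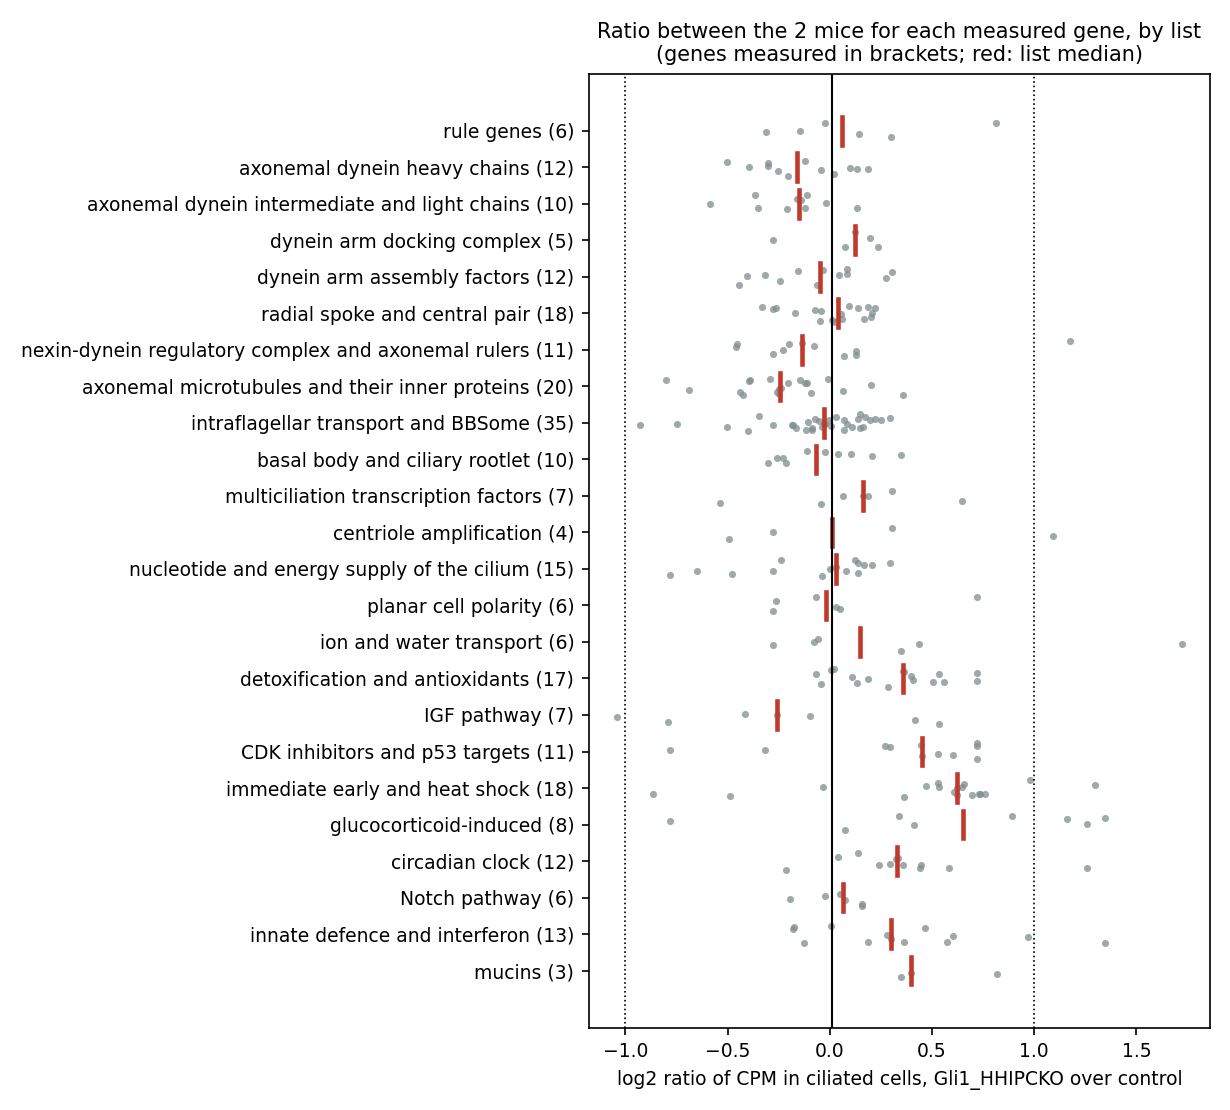
Log2 ratio of CPM in ciliated cells, *Gli1 HHIPCKO* over control, for each measured gene (points) by list, with the number of genes measured in brackets. Red bars are list medians, the solid line the median of all measured genes (0.01) and dotted lines the 2-fold limits; the motile cilium lists lie between −0.24 and 0.12 and the immediate early list at 0.62.

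Intraflagellar transport carries cargo along the growing cilium and is shared with primary cilia of other cells. Of its 37 genes with the BBSome, 35 were measured, at a median ratio of −0.03 and with none past 2-fold. That median crossed 0 under 6 of 15 alternatives. *Ift88* was at 363 CPM in control and 408 in *Gli1 HHIPCKO*, and *Ift46* at 97.7 and 51.3 (−0.93, −1.69 to −0.22). The genes were less particular to these cells than the axonemal ones: the median gene was 7.79-fold above the other cells, and *Ift20* was at 211 and 181 CPM there, against 367 and 259 in ciliated cells. Basal body and rootlet genes had a median of −0.07 over 10 genes, or 0.03 with each cell weighed the same, and none was past 2-fold. Enzymes of the nucleotide and energy supply had a median of 0.03 over 15 genes, from −0.78 for *Nme7* to 0.29 for *Ak8*. Their median crossed 0 under 3 alternatives, down to −0.21. *Ckb*, which encodes brain-type creatine kinase, was at 698 CPM in control and 446 in *Gli1 HHIPCKO* (−0.65, −0.90 to −0.40), with 641 and 478 CPM in the other cells.

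Of 15 transcription factors of multiciliation, 7 were measured. *Trp73*, which acts upstream of *Foxj1*, was at 79.3 CPM in control and 98.0 in *Gli1 HHIPCKO*, *Myb* at 211 and 240, *Rfx3* at 101 and 105 and *Rfx2* at 105 and 72.3. All 4 ratios had intervals that held 0. The list median was 0.16 and none of the 7 was past 2-fold. The early factors were near 0 in both mice: *Mcidas* had 3 and 0 UMIs, *Gmnc* 1 and 0, *Foxn4* 3 and 1 and *Ccno* 12 and 7. *Deup1*, the scaffold of the deuterosome on which centrioles multiply, was the exception among 4 measured genes of centriole amplification. It had 24 UMIs in control and 31 in *Gli1 HHIPCKO* (34.0 and 72.3 CPM, log2 ratio 1.09, 0.27 to 1.92). Cells with a *Deup1* UMI made up 11.3% (6.85 to 17.3) and 25.6% (16.8 to 36.1), and with each cell thinned to 2000 UMIs 7.14% of 126 cells (3.32 to 13.1) and 18.3% of 71 cells (10.1 to 29.3). Thinned to 1000 UMIs the shares were 3.25% (1.06 to 7.41) and 4.88% (1.34 to 12.02). The intervals overlap at every depth. The ratio was 0.33 when each cell weighed the same, 0.41 in all cells of the ciliated-like cluster and 1.87 in cells with at least 5 rule genes.

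Single cells with several early genes were few. Of the 8 genes *Deup1*, *Ccno*, *Mcidas*, *Gmnc*, *Cdc20b*, *Foxn4*, *Myb* and *Plk4*, at least 5 were detected in 1 cell of each mouse. At full depth, 0 were detected in 54 of 159 control cells and 31 of 86 *Gli1 HHIPCKO* cells. Exactly 1 was detected in 95 and 34 cells, the other direction from exactly 2, in 7 and 18, and 3 were in 2 and 2. *Myb* by itself had a UMI in 57.9% of control and 55.8% of *Gli1 HHIPCKO* ciliated cells. The control cell held 7 of the 8 in 4696 UMIs, with 9 UMIs of *Ccno*, 4 of *Deup1*, 4 of *Myb* and 4 of *Foxj1*. It held 9 of the 12 *Ccno* UMIs and 2 of the 3 *Mcidas* UMIs of all control ciliated cells. The *Gli1 HHIPCKO* cell held 5 of the 8 in 4432 UMIs, with 5 UMIs of *Deup1*, 3 of *Ccno* and 74 of the club cell gene *Scgb1a1*.

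Proliferation markers (*Mki67*, *Top2a*, *Cdk1*, *Ccnb1*, *Birc5* and *Pclaf*) had 19 UMIs in control, in 6 cells, and 88 in *Gli1 HHIPCKO*, in 4 cells. In *Gli1 HHIPCKO* 85 of the 88 lay in 2 cells, with 45 and 40, and 1 of these lay outside the ciliated-like cluster. The difference in the sum therefore rests on 2 cells. Without the cells carrying markers of another type the sum was 0.198 per 10000 UMIs in control and 0.0952 in *Gli1 HHIPCKO*. These sums hold too few UMIs to give a direction.

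Promoter sequence was read for letters known to bind the factors above. RefSeq promoter windows of GRCm38.p6, from 250 bases before to 50 bases after the gene start, matched 78 of the 95 motile cilium genes and 32 of the 37 transport and BBSome genes. The X-box bound by RFX factors was searched on both strands as GTTNCC followed by GGNAAC with 0 to 3 bases between. It lay in 253 of 27025 genes (0.936%), in 3 of the 78 motile cilium genes (3.85%) and in 3 of the 32 transport genes (9.38%), shares that rest on few genes. Of the 3 rule genes with a window, 0 held it. The forkhead core GTAAACA was in 4.05% of all windows and in 5 of the 78 (6.41%, 2.11 to 14.3). A match describes letters only.

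The X-boxes of the transport genes *Ift57*, *Ttc26* and *Bbs7* and of the axonemal genes *Ccdc151* (docking), *Cfap298* (assembly) and *Iqca* (regulatory complex) are printed to show the bases within and around each match (the search itself fixed 10 letters of each), each on its gene's strand, 5′ to 3′, with both X-box ends and the bases between in capitals. The windows lie at chr16:49699228-49699252 (plus), chr6:38381485-38381510 (plus), chr3:36613491-36613516 (minus), chr9:22002649-22002674 (minus), chr16:90934898-90934924 (minus) and chr1:90153517-90153542 (minus). A further match of *Cfap298* lies at chr16:90935018-90935043.
Ift57: cctgcgGTTGCCTGGTAACggtggg
Ttc26: ggcggcGTTGCCGTGGAAACggagct
Bbs7: gccccgGTTGCCTTGGAAACcggcca
Ccdc151: cgggcgGTTTCCTTGGGAACgtgggc
Cfap298: ttgactGTTGCCCCTGGCAACagccac
Iqca: cttgcaGTTGCCACGGAAACggaaac
The log2 ratios of these 6 genes between the mice were −0.01, 0.11, −0.18, −0.28, −0.24 and −0.23 in the same order.

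RNA of genes best known from secretory cells was plentiful in ciliated cells. *Cbr2*, a carbonyl reductase gene of club and AT2 cells, was at 10511 CPM (10273 to 10753) in control and 15595 (15223 to 15973) in *Gli1 HHIPCKO* (log2 ratio 0.57, 0.52 to 0.62). The median cell held 35 UMIs in control and 63.5 in *Gli1 HHIPCKO*, so the higher level was not set by few cells. In AT2-like clusters *Cbr2* was likewise higher in the *Gli1 HHIPCKO* mouse, at 4500 and 6883 CPM, while the club-like cluster, with 40 and 14 cells, was at 16455 and 14678. *Cyp2f2*, a club cell cytochrome P450, was at 1389 and 1272 CPM in ciliated cells, in 83.6% and 87.2% of them, against 0.397% and 0.370% of fibroblast-like cells.

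*Scgb1a1*, the main secretoglobin of club cells, was at 10921 CPM in control and 2205 in *Gli1 HHIPCKO* ciliated cells, a log2 ratio of −2.31. The sums rest on single cells. In control 1 cell held 5637 of 7712 UMIs, and in *Gli1 HHIPCKO* 1 cell held 470 of 945. Without these the levels were 3014 and 1115 CPM, a ratio of −1.43, and with each cell weighed the same it was −0.50. The median cell held 2 and 3 UMIs. *Scgb1a1* was also lower in all other cells of the *Gli1 HHIPCKO* library, at 579 CPM against 3916, and 30.8% and 24.2% of fibroblast-like cells had a UMI of it. Of 165 *Scgb3a2* UMIs in control, 118 lay in 1 cell, against 13 UMIs in all in *Gli1 HHIPCKO*, and the log2 ratio was −2.95 and without the highest cells −2.06. The part of RNA from other cells in these levels was not tested.

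**Figure D3:**
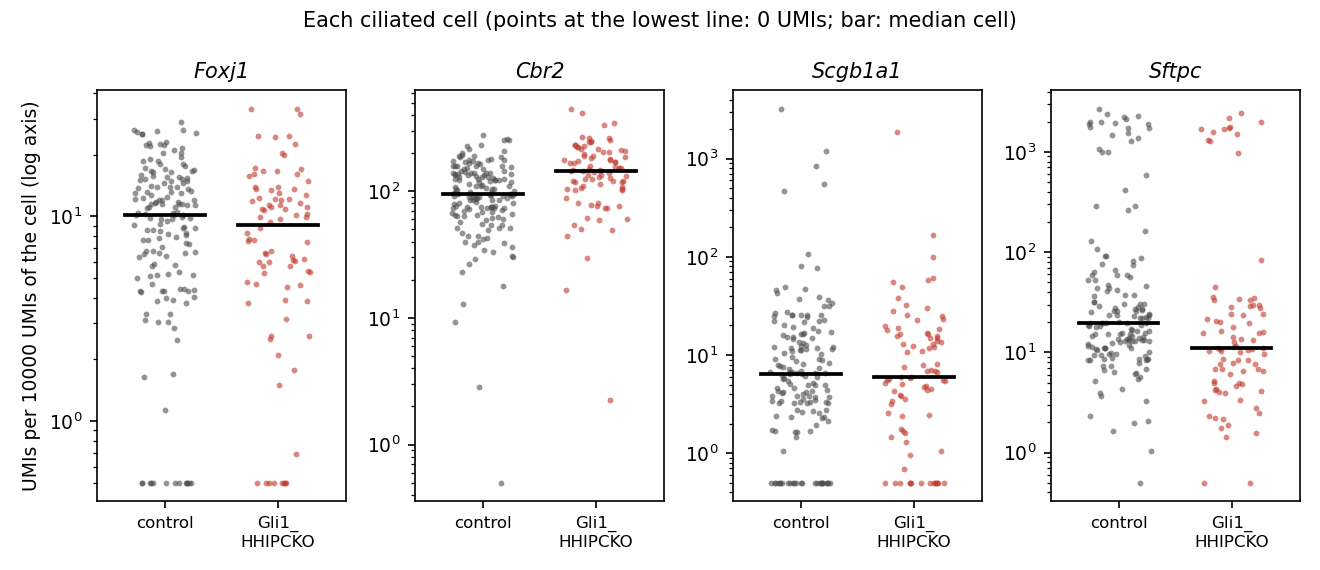
*Foxj1*, *Cbr2*, *Scgb1a1* and *Sftpc* in each of the 159 control and 86 *Gli1 HHIPCKO* ciliated cells, as UMIs per 10000 UMIs of the cell (log axis), with cells at 0 UMIs drawn on the lowest line and a bar at the median cell. *Cbr2* was shifted over most cells (median 35 and 63.5 UMIs a cell), whereas the *Scgb1a1* sum of control came mainly from 1 cell with 5637 UMIs and the *Sftpc* sum from a separate group of cells with high values.

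Detoxification and antioxidant genes were mostly above 0. Of 19 genes 17 were measured, 15 were above 0, against 3168 of 6177 over all measured genes, and none was past 2-fold, with a median of 0.36 that lay between 0.22 and 0.38 under the alternatives. *Gstm1*, a glutathione transferase gene, was at 494 CPM in control and 702 in *Gli1 HHIPCKO* (0.51, 0.28 to 0.73). *Prdx6*, a peroxiredoxin gene, was at 595 and 875 (0.56, 0.35 to 0.76), and *Txn1*, which encodes thioredoxin, at 1090 and 1580 (0.53, 0.38 to 0.69). *Cyp2s1* and *Aldh3b1*, which led the ciliated-like cluster, were at 1149 and 1239 and at 777 and 779 CPM. *Txn1* went the other way in all other cells, at 715 and 575 CPM, while *Gstm1* was at 52.9 and 93.2 there.

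Immediate early genes, which cells switch on within minutes of a stimulus, and heat shock genes formed 1 list. Of its 18 measured genes 15 were above 0, against 3168 of 6177 over all measured genes. The median was 0.62 (0.50 to 0.66 over the alternatives), and *Atf3* was at least 2-fold higher, against 1.7% of all measured genes. *Fos* was at 826 CPM in control and 1290 in *Gli1 HHIPCKO* (0.64, 0.47 to 0.81), and *Egr1* at 378 and 628 (0.73, 0.48 to 0.98). *Atf3*, a stress-induced transcription factor gene, was at 300 and 737 CPM (1.30, 1.04 to 1.55), and its ratio was 0.97, short of 2-fold, without the cells carrying markers of another type. All 3 were also higher in the other cells of that library, at 800 and 1180, 402 and 548, and 180 and 340 CPM. Of the 3 genes below 0, the immediate early gene *Ier2* was at 868 and 847 CPM (−0.04, −0.23 to 0.15) and the others were heat shock genes. *Hsp90aa1* was at 1191 and 849 CPM (−0.49, −0.67 to −0.31) and *Hsph1* at 144 and 79.3 (−0.86, −1.47 to −0.29), with levels of 159 and 150 and of 21.3 and 18.2 in the other cells. The co-chaperone gene *Dnajb1* was higher, at 132 and 203 CPM (0.62), but 25 of its 87 *Gli1 HHIPCKO* UMIs lay in 1 cell, and without the highest cells the ratio was 0.30 (−0.20 to 0.79).

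Glucocorticoid-induced genes had a median of 0.65 over 8 measured genes, of which *Per1*, *Errfi1* and *Lcn2* were at least 2-fold higher, against 1.7% of all measured genes. Without the 39 cells with markers of another type the median was 0.34, *Errfi1* was at 0.96, short of 2-fold, and *Lcn2*, of which 50 of 159 *Gli1 HHIPCKO* UMIs lay in 1 cell, was no longer measured. *Per1*, shared with the clock list, was at 56.6 CPM in control and 135 in *Gli1 HHIPCKO* (1.26, 0.65 to 1.88), and 2.18 with each cell thinned to 2000 UMIs. *Mt1*, a metallothionein gene, was at 2266 and 3010 CPM (0.41, 0.30 to 0.52), against 182 and 489 in the other cells. Of the 12 measured genes of the circadian clock list 11 were above 0, against 3168 of 6177 over all measured genes. The list had a median of 0.33. Over the alternatives with at least 3 genes measured it lay between 0.28 and 0.54.

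*Cdkn1a*, which encodes the cyclin-dependent kinase inhibitor p21, was at 385 CPM (341 to 434) in control ciliated cells and 555 (487 to 631) in *Gli1 HHIPCKO* (0.53, 0.27 to 0.78). Cells with a UMI made up 60.4% (52.3 to 68.0) and 70.9% (60.1 to 80.2), and with each cell thinned to 2000 UMIs 42.9% of 126 cells and 54.9% of 71 cells. The intervals of these shares overlap. In AT2-like cells the share was 24.4% and 58.2%, and thinned 11.4% and 29.9%. In the club-like cluster, of 40 and 14 cells, it was 20% and 14.3%, and 9.38% and 12.5% of the 32 and 8 cells with at least 2000 UMIs after thinning, too few to give a direction. Pericyte-like cells held it in 2.10% and 13.1% of cells at median depths of 1820 and 1916.5 UMIs. The level in control ciliated cells was above that in the other cells of the library, 385 against 97.1 CPM.

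*Cdkn1c*, which encodes p57, was lower, at 1474 CPM (1386 to 1567) in control and 856 (771 to 949) in *Gli1 HHIPCKO* (−0.78, −0.96 to −0.61), while the other cells were at 191 and 223. Without the cells carrying markers of another type the ratio was −0.55 (−0.74 to −0.37). The share of cells with a UMI was 73.6% (66.0 to 80.3) and 61.6% (50.5 to 71.9) at full depth. It was 73.8% (65.2 to 81.2) and 53.5% (41.3 to 65.5) thinned to 2000 UMIs, and 51.3% and 36.6% thinned to 1000. The intervals of these shares overlap at every depth. Over the 11 measured genes of the CDK inhibitor and p53 target list the median was 0.45. Of these 9 were above 0, against 3168 of 6177 over all measured genes. None was past 2-fold, although *Cdkn1b* reached 1.00 (0.10 to 1.93) without the cells carrying markers of another type, with 20 and 25 UMIs.

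Hedgehog genes were scarce in ciliated cells, and 2 of 23 were measured. *Gli1* had 0 UMIs in both mice, with exact upper limits of 2.29% of control and 4.20% of *Gli1 HHIPCKO* cells for the share with a UMI, and *Gli2* had 0 as well. *Hhip* had 2 UMIs in control and 1 in *Gli1 HHIPCKO* (2.83 and 2.33 CPM), whereas the other cells were at 337 and 90.0 CPM for this deleted gene. The receptor genes *Ptch1* and *Smo* had 8 and 3 and 5 and 3 UMIs. The ligand gene *Shh* was present at 22.7 CPM and 23.3 CPM, in 9.43% and 9.30% of ciliated cells, against 0.0795% and 0.0411% of fibroblast-like cells and 2.48 and 1.71 CPM in all other cells. *Gli3* had 31 UMIs in control and 9 in *Gli1 HHIPCKO* (−1.06, −2.32 to 0.04), an interval that holds 0. Without the cells carrying markers of another type it had 29 and 8 UMIs (−1.18, −2.52 to −0.01), an interval just below 0. *Iqce*, a ciliary base protein gene, was at 125 and 100 CPM.

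For the IGF pathway, 7 of 14 genes were measured, with a median of −0.26. The ligand gene *Igf1* had 0 UMIs in both mice, against 88.9 CPM in control and 304 in *Gli1 HHIPCKO* in the other cells. Its receptor gene *Igf1r* was at 93.5 CPM (72.3 to 119) and 135 (103 to 175) in ciliated cells, a ratio of 0.53 whose interval reaches from just below 0 to 1.06, and at 26.0 and 52.9 in the other cells. Thinned to 2000 UMIs, 13.5% (8.06 to 20.7) and 32.4% (21.8 to 44.5) of cells had an *Igf1r* UMI, and thinned to 1000 UMIs 11.7% (7.08 to 17.8) and 19.5% (11.6 to 29.7), where the intervals overlap. Among the binding proteins *Igfbp2* was at 86.4 and 42.0 CPM (−1.04, −1.89 to −0.26) and *Igfbp5* at 714 and 597 (−0.26, −0.48 to −0.04).

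Smaller functional groups followed. Planar polarity genes, which align the beat, had a median of −0.02 over 6 measured of 13, a median that changed sign under 5 of 15 alternatives. For ion and water transport 6 of 12 genes were measured: *Scnn1a*, a sodium channel subunit, was at 334 CPM in control and 453 in *Gli1 HHIPCKO* (0.44, 0.16 to 0.72), while *Cftr* had 7 and 4 UMIs and *Scnn1g* 0. *Aqp5* was past 2-fold with 29 and 58 UMIs, of which 33 lay in 1 *Gli1 HHIPCKO* cell. The 6 measured Notch genes had a median of 0.06, which changed sign under 1 alternative, with *Jag1* at 142 and 124 CPM. The membrane mucin gene *Muc4* was at 198 and 252 CPM (0.35, −0.03 to 0.72), and the secreted mucin genes *Muc5ac* and *Muc5b* were at 0. Innate defence genes had a median of 0.30 over 13 genes, which was −0.03 without the cells carrying markers of another type. Among them *Wfdc2* was at 3553 and 4309 CPM (0.28, 0.19 to 0.37) and *Cxcl17*, a mucosal chemokine gene, at 82.1 and 161 (log2 ratio 0.97).

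The 20 genes with the highest level over all other cells are a description too, since the rule used that contrast. They included the rule gene *Tmem212*, the regulatory complex genes *Tcte1* and *Iqca*, the spoke gene *Rsph14*, *Fam183b*, *Ccdc155* and *Barx2*, which encodes a homeobox factor. *AU040972* stood apart among them between the mice. It had 297 UMIs in control and 567 in *Gli1 HHIPCKO*, 421 CPM (374 to 471) and 1323 (1216 to 1436), a log2 ratio of 1.65 (1.45 to 1.86), and 1.58 without the highest cell of each mouse. A UMI was found in 50.3% and 72.1% of ciliated cells and in 0.0300% and 0.0944% of AT2-like cells. The gene lies on the minus strand at chr11:79481719-79484031 of GRCm38, within *Nf1* on the other strand. *Ankrd65* went down, at 161 and 81.7 CPM (−0.98, −1.57 to −0.43).

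Among the genes with the largest ratios, after *Xist*, most had few counts. A gene was measured if it reached 10% of the cells of either mouse. Of the higher genes named, *Slurp2*, *Car2*, *Depp1*, *Tmem87b*, *Rbbp8*, *Osgin1*, *Rasl10a* and *Aqp5* reached it only in *Gli1 HHIPCKO*. The lowest genes given below, except *Scgb1a1*, reached it only in control. These genes entered only through the mouse where they are high, and their ranking is partly fixed by that filter. *Slurp2* had 6 UMIs in control and 24 in *Gli1 HHIPCKO* (2.72, 1.39 to 4.30), 9 of the 24 in 1 cell. *Hmgb2*, a chromatin protein gene of dividing cells, had 29 and 85 UMIs (2.27), 30 of the 85 in 1 cell, and the ratio was 1.37 without cells with at least 5 proliferation UMIs. *Rgcc* had 33 and 91 UMIs, and its ratio of 2.18 was −1.32 without the cells carrying markers of another type. *Car2* had 12 and 28 UMIs, 14 of them in 1 cell, and its ratio of 1.94 was −0.07 in all cells of the ciliated-like cluster. The ratios of *Rgcc* and *Car2* thus rest on which cells are taken.

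*Hist1h1e*, a linker histone gene, was better counted. It was at 171 CPM in control and 558 in *Gli1 HHIPCKO* (1.70, 1.38 to 2.03), in 39.6% and 68.6% of ciliated cells, and at 251 and 477 CPM in the other cells. It overlaps *Hist1h2be* on the same strand, so that reads of the pair may not be separated. *Pim3* was at 28.3 and 98.0 CPM (1.79) and at 53.3 and 101 in the other cells. *Osgin1*, an oxidative stress gene, was at 19.8 and 67.7 CPM (1.77), and *Depp1*, a FOXO target, at 18.4 and 79.3 (2.11). *Tmem87b*, *Rbbp8*, *Hist1h4d* and *Rasl10a* had ratios of 1.94, 1.86, 1.69 and 1.66. Without the cells with markers of another type these were 2.61, 1.68, 1.55 and 1.75, and *Depp1* was at 2.68. *Osgin1*, *Depp1*, *Tmem87b*, *Rbbp8* and *Rasl10a* were measured through *Gli1 HHIPCKO* alone, so their high ratios are partly fixed by the filter.

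On the lower side, after the secretoglobins and *Eif2s3y*, the genes had between 26 and 41 UMIs in control and between 4 and 7 in *Gli1 HHIPCKO*. All of these genes were found in between 4.65% and 6.98% of *Gli1 HHIPCKO* ciliated cells. They were therefore measured through control alone, and their low ratios are partly fixed by that filter. Among them *Unc79* and *Cfap99* had levels at least 43.5-fold above the other cells in each mouse. *Unc79* was at 56.6 CPM in control and 9.33 in *Gli1 HHIPCKO* (−2.60, −4.55 to −1.13) and *Cfap99* at 58.1 and 16.3 (−1.83, −3.23 to −0.66, and −2.86 without the cells with markers of another type). *Enho* (−2.28) and *Lyrm1* (−1.77) lie across the dynein genes *Dnaic1* and *Dnah3* on the other strand, whose own ratios were −0.21 and −0.30. Without the cells with markers of another type *Enho* was at −3.07 and *Lyrm1* at −1.64. *Ptgs2*, the inducible cyclooxygenase gene, was at 36.8 and 9.33 CPM (−1.98, −3.96 to −0.45), and *Il13ra1*, an interleukin 13 receptor subunit gene on the X chromosome, at 49.6 and 14.0 (−1.82, −3.36 to −0.56). *Pgm1*, *Timm29*, *Basp1*, *Fam3c*, *Grb10* and *Tmem164* lay between −2.03 and −1.68. Without the cells with markers of another type they lay between −2.54 (*Basp1*) and −1.46 (*Fam3c*), with *Tmem164* at −2.41.

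**Figure D4:**
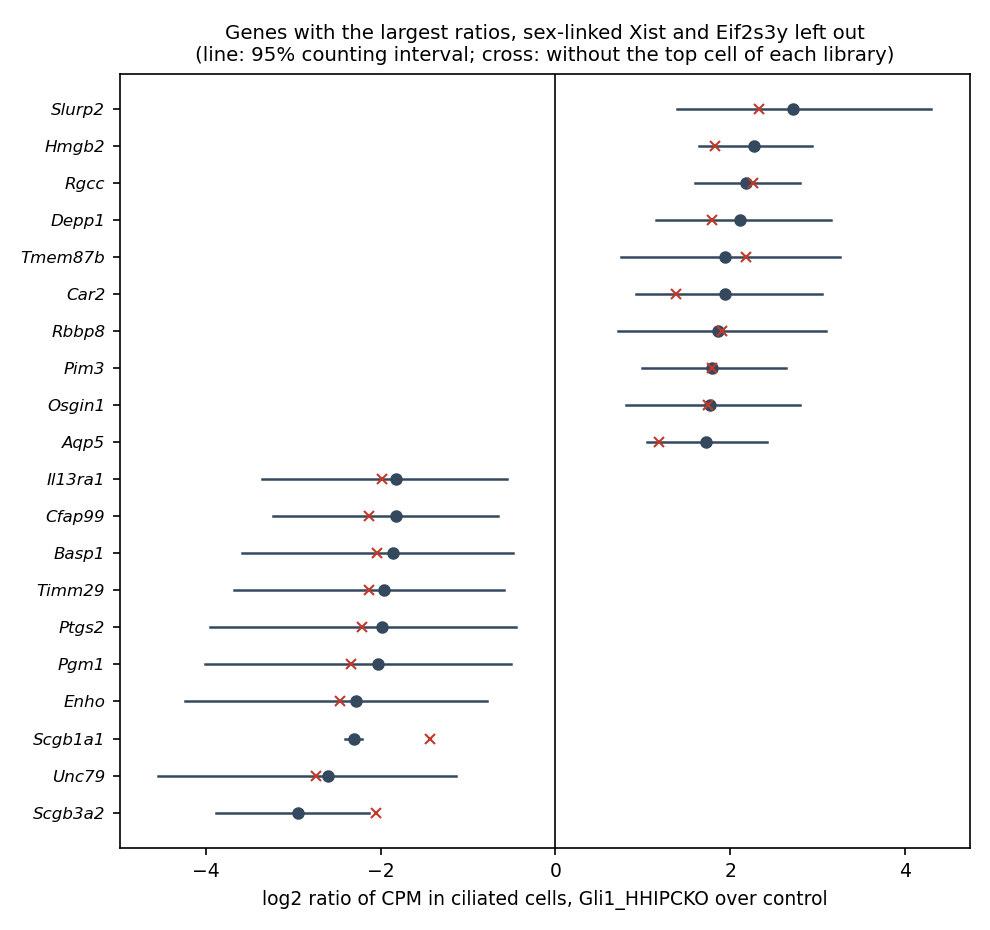
Log2 ratio of CPM in ciliated cells, *Gli1 HHIPCKO* over control, of the 10 highest and 10 lowest genes after the sex-linked *Xist* and *Eif2s3y*, with exact 95% counting intervals (lines) and the ratio without the highest cell of each mouse (crosses). Without that cell *Scgb1a1* moved from −2.31 to −1.43 and *Car2* from 1.94 to 1.38.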

How the data were processed

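Libraries of 1 *Gli1 HHIPCKO* and 1 control mouse were used. Per the file headers the authors deposited raw UMI counts per gene and cell from Cell Ranger 6.1.0 (the processing notes name 3.1.0) aligned to mm10. The labels name a 3′ v2 kit, the series' design a 5′ v2 kit, and whether counting used strand was not given in the sources used here; of 103 named genes with a position, 32 overlap a gene on the other strand and 1 on the same strand. The files list 32285 genes, 32158 found in GENCODE vM21 (GRCm38).

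UMIs were summed over ciliated cells per library and scaled to CPM, with exact Poisson and binomial intervals. No test was possible with 1 mouse per group. Cells were clustered without integration on 2000 variable genes, 30 principal components and 20 neighbours by Leiden at resolution 1, and clusters are named "-like" from fixed markers. No doublet caller was run. Cells with at least 3 markers of another type, each with at least 2 UMIs and over 3 times its background, were left out as an alternative. The types searched were AT2, fibroblast, smooth muscle, pericyte, mesothelial, endothelial, immune and red cell. Club, AT1, basal and neuroendocrine markers were not searched. Named genes were the rule genes, genes of the lists, the 15 highest and 15 lowest ratios and the 20 genes highest over other cells. Some genes that this rule takes are not reported here. *AU040972* and *Ankrd65* fall under this rule, and the genes that lead clusters were named after their values were seen. Members and lists were chosen with earlier results of these data known. The calculation was tested on simulated data. The simulated counts were independent draws, without doublets, genes concentrated in single cells or spread between mice, so these were not tested. Clusters came from leidenalg 0.10.2 with igraph 0.11.9, figures from matplotlib 3.10.9, and all else from scipy 1.17.1, pandas 2.3.3 and numpy 2.4.6 under Python 3.11.15.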

Additional observations from a re-analysis of the deposited data

How the results depend on the processing

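No paired analysis was possible because each group had 1 mouse. Under 15 alternatives 1393 ratios of 94 named genes were recomputed: 1322 lay within the 95% counting interval of the first value, 69 outside it, and 2 belonged to genes past 2-fold at first that took the other sign. Sign changes of genes that were not past 2-fold are not counted in the 2. The 2 were *Car2*, −0.0662 in all cells of the ciliated-like cluster, and *Rgcc*, −1.32 without cells with 3 markers of another type. The alternatives with at least 100 UMIs, and with at least 10 UMIs and no share filter, only choose which genes are measured. They cannot change a gene's ratio, so part of the 1322 was fixed beforehand. The share of ciliated cells in control was 1.14% with at least 5 rule genes, 1.81% with no collagen limit, 1.21% without cells with 3 markers of another type and 2.33% as the whole ciliated-like cluster, and in *Gli1 HHIPCKO* 0.891% with no collagen limit and 1.05% as the whole cluster. Genes past 2-fold, higher and lower, numbered 195 and 197 with each cell weighed the same, 52 and 76 with cells thinned to 2000 UMIs, 15 and 6 with at least 100 UMIs, and 457 and 564 with at least 10 UMIs and no share filter. Cells with a *Cdkn1a* UMI made up 42.9% in control and 54.9% in *Gli1 HHIPCKO* when thinned to 2000 UMIs, and 27.3% and 35.4% when thinned to 1000. Some list medians moved, beside those given in the results. Detoxification went to 0.22 with at least 5 rule genes, 0.22 without cells with 3 markers of another type and 0.26 when thinned to 2000 UMIs. Immediate early and heat shock genes went to 0.50 with no collagen limit and 0.52 when thinned. Glucocorticoid-induced genes went to 0.34 without cells with 3 markers of another type and 0.41 with no share filter. The clock list went to 0.50 with at least 5 rule genes and 0.54 with each cell weighed the same. Innate defence turned to −0.0336 without cells with 3 markers of another type. The CDK inhibitor and p53 target list went to 0.58 with at least 5 rule genes, 0.58 without cells with 3 markers of another type, 0.58 with each cell weighed the same and 0.29 with at least 100 UMIs.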

Other observations

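Transcripts of a ribosomal RNA locus differed in level between the mice. In ciliated cells *Gm42418* was at 47879 CPM in control and 30007 in *Gli1 HHIPCKO*, and *AY036118* at 21820 and 12968. The other cells moved the same way, at 32681 and 24548 for *Gm42418* and 11834 and 7322 for *AY036118*.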
